A study of Mus musculus with 6 samples.

Results

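The fatty acid oxidation enzymes described here are 5 genes, taken as every probe whose symbol in the platform annotation was Hadha, Acadl, Acadm, Acot2 or Ehhadh. They were represented by 6 of the 21020 named probes, 2 of them for Acot2 and 1 for each of the others, among 16675 named genes. The first 4 encode mitochondrial proteins and Ehhadh a peroxisomal one. The data came from ob/ob mice (B6.V-Lepob/J), which lack functional leptin in every group. After a fast of 4 h the mice received by mouth either MCSE, an aqueous extract of Momordica charantia (bitter melon) seeds, or phosphate-buffered saline (PBS), and 15 min later an intraperitoneal glucose dose of 1 g/kg. Muscle, adipose tissue and liver were collected 4 h after the glucose, giving 6 one-colour arrays, 1 for each treatment and tissue. Age, sex, the muscle sampled and any pooling of animals were not given in the labels used here.

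Mitochondrial beta-oxidation shortens fatty acyl-CoA in the matrix by repeated rounds of dehydrogenation, hydration, a second dehydrogenation and thiolysis. Long chains enter as carnitine esters, and muscle and liver use the pathway for energy between meals. Peroxisomes run a parallel series of reactions with their own enzymes, which handles very long chains, branched chains and dicarboxylic acids and is prominent in liver and in kidney proximal tubule. Many genes of both routes are targets of the nuclear receptor PPAR-alpha. Acadl and Acadm encode the long-chain and medium-chain acyl-CoA dehydrogenases, which carry out the opening step. Hadha encodes the alpha subunit of the trifunctional protein, which hydrates long-chain products and oxidises them again. Acot2 encodes a matrix thioesterase that releases free fatty acid from acyl-CoA. Ehhadh encodes the peroxisomal bifunctional enzyme, whose hydratase and dehydrogenase steps match those of Hadha.

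Hadha, Acadl, Acot2 and Ehhadh were the members that differed at least 2-fold between the arrays labelled liver, the first pair lower and the second pair higher with MCSE, and the 250 bases before their start sites are shown so that their upstream sequence can be compared. The sequences are from RefSeq (build GRCm38.p6), all read 5′ to 3′ on the gene's own strand. They lie at chr5:30154981-30155230 (minus strand) for Hadha, chr1:66863310-66863559 (minus) for Acadl, chr12:83987611-83987860 (plus) for Acot2 and chr16:21787835-21788084 (minus) for Ehhadh. Capitals mark GGGCGG and CCAAT on either strand; no match overlapped another.
Hadha: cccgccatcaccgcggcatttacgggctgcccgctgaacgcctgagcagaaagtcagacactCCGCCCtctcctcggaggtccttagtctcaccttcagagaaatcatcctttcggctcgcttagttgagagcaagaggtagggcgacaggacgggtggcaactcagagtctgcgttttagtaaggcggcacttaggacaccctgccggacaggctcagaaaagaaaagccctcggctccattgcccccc
Acadl: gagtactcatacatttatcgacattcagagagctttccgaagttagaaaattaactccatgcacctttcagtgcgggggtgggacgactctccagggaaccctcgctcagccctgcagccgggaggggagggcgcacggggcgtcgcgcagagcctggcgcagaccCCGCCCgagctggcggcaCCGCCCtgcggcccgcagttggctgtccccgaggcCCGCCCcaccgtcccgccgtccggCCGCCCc
Acot2: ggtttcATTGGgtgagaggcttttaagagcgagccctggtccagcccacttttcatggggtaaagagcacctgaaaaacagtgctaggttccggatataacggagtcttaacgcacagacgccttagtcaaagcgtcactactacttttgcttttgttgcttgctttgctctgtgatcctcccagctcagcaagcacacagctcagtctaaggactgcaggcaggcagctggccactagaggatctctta
Ehhadh: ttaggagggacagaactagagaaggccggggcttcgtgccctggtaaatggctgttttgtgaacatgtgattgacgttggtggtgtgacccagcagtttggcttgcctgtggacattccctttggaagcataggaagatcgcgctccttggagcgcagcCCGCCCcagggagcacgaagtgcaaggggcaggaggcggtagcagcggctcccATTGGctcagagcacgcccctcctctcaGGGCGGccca
GGGCGG was found in 4 places before Acadl, in 2 before Ehhadh and in 1 before Hadha, and 32.7% of 32851 RefSeq windows of the same length held it. CCAAT was found once each before Acot2 and Ehhadh, against 33.8% of all windows. AGGTCA, the half-site that PPAR and related receptors read, was searched on both strands as well. It was in none (0) of these 4 windows and in that of Acadm, 249 to 244 bases before the start, against 14% of all windows. The upstream windows of Hadha and of Hadhb, which encodes the beta subunit of the same protein, overlap because the genes start on opposite strands. Hadhb was not found under that symbol among the named probes.

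Levels are log2 intensities of the authors' normalized values. The median of all probes was 8.95, and a gene was taken as measured in a pair of arrays when at least 1 of them reached it. Every group was a single array, so differences between MCSE and PBS have no replicate check, no p-value and no error between mice. As a rough gauge of disagreement between probes, differences between 2 arrays were set side by side for probes that share a gene. This gave an SD per probe of 0.517 for the muscle pair, 0.611 for the liver pair and 1.735 for the adipose pair. It was 0.329 between the nearly alike MCSE liver and MCSE adipose arrays, so it is larger for unlike arrays and is not technical error alone. Error shared by all probes of an array is left out of it.

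The tissue labels were checked against marker genes. On both muscle arrays 9 of 10 fast-fibre genes were at or above the median of all probes, with list medians of 15.91 (PBS) and 15.87 (MCSE). Genes of other tissues reached that level there too, among them 7 of 7 white adipocyte genes on each array. Hepatocyte genes did so in 6 of 9 cases with PBS and 5 of 9 with MCSE, and proximal tubule genes in 4 of 10 and 7 of 10. Of all 16675 named genes, 10711 reached it on at least 1 of the 2 muscle arrays. The hepatocyte and proximal tubule counts are near or below that share and do not by themselves show those tissues. On the arrays labelled liver, genes of several tissues were at or above the median of all probes. They were hepatocyte genes (8 of 9 with PBS, 9 of 9 with MCSE), white adipocyte genes (7 of 7 on each) and genes of the kidney proximal tubule (8 of 10 and 10 of 10). Of all 16675 named genes, 11342 were so on at least 1 of these 2 arrays. The MCSE adipose array correlated at 0.982 with the MCSE liver array over all probes, and the PBS adipose array at 0.307 to 0.517 with each of the others. "Liver" and "adipose" below are therefore labels of arrays. In bulk tissue, fewer cells of a type and less RNA per cell cannot be told apart.

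The members did not share one profile over the 6 arrays. Hadha lay at 12.89 on the PBS muscle array, 12.43 on MCSE muscle, 13.32 on PBS liver, 11.07 on MCSE liver, 14.47 on PBS adipose and 11.12 on MCSE adipose. It was highest on PBS adipose and lowest on MCSE liver, with MCSE adipose next to it, and in every tissue label the MCSE array was the lower one. The step from MCSE muscle down to MCSE adipose, 1.31, was the only gap between neighbours in this order that exceeded the SD per probe of its pair of arrays (0.909).

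Acadl was at 14.56 on PBS muscle, 14.22 on MCSE muscle, 14.90 on PBS liver, 13.48 on MCSE liver, 10.47 on PBS adipose and 13.40 on MCSE adipose. It was highest on PBS liver and lowest on PBS adipose, and the MCSE liver and MCSE adipose arrays lay below both muscle arrays. The gap above PBS adipose (2.93, SD per probe 1.735) was the only one between neighbours beyond the gauge.

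Acadm was the steadiest member outside the PBS adipose array. Its level was 13.58 on PBS muscle, 13.52 on MCSE muscle, 13.27 on PBS liver, 13.70 on MCSE liver, 9.94 on PBS adipose and 13.73 on MCSE adipose. None of the gaps among the 5 brighter arrays exceeded the SD per probe, and the gap of 3.33 down to PBS adipose did (1.68).

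Acot2 separated the muscle arrays from the rest. Its bright probe gave 13.43 on PBS muscle, 13.82 on MCSE muscle, 10.77 on PBS liver, 12.00 on MCSE liver, 10.27 on PBS adipose and 11.84 on MCSE adipose. Both muscle arrays were above all others, and each MCSE array was above the PBS array of its label. The gap between PBS muscle and MCSE liver (1.43, SD per probe 0.864) and that between MCSE adipose and PBS liver (1.08, SD per probe 0.792) exceeded the gauge. The other Acot2 probe lay between 8.20 and 8.79, below the median of all probes on all 6 arrays. Acot2 has close paralogs, and the probe sequences were not used here, so signal from another thioesterase cannot be told apart.

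Ehhadh gave the opposite tissue pattern. It lay at 8.74 on PBS muscle and 8.94 on MCSE muscle, below the median of all probes, and at 11.16 on PBS liver, 12.37 on MCSE liver, 8.07 on PBS adipose and 12.36 on MCSE adipose. The gap between PBS liver and the brighter muscle array (2.23, SD per probe 1.045) and that between MCSE adipose and PBS liver (1.19, SD per probe 0.792) both exceeded the gauge.

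**Figure D1:**
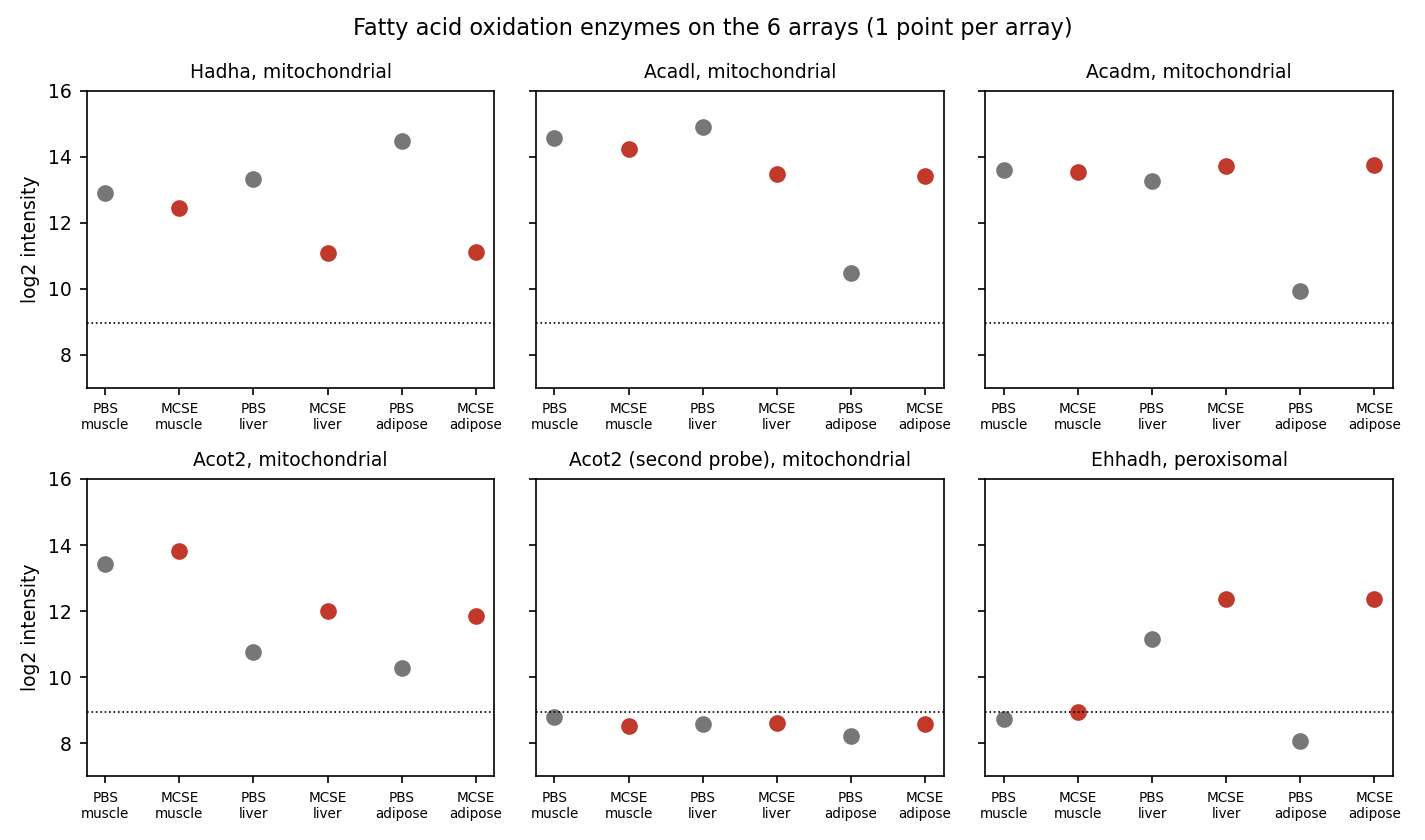
Log2 intensity of the 6 probes of the 5 enzymes (vertical axis) on the 6 arrays (horizontal axis), 1 point per array, grey for PBS and red for MCSE; the dotted line is the median of all probes, 8.95. Acadm is level except on PBS adipose, Acot2 is brightest on the muscle arrays and Ehhadh is at or below the dotted line on both of them.

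The first comparison was MCSE against PBS in muscle. No member (0 of the 4 measured) differed 2-fold, where MCSE exceeded PBS 2-fold or more in 3.9% of the 10711 measured genes and PBS exceeded MCSE as much in 1.88%. Hadha differed by -0.47 on the log2 scale, Acadl by -0.34, Acadm by -0.06 and Acot2 by 0.39. Each of these is smaller in size than the SD per probe of 0.517. Ehhadh, not measured in this pair, differed by 0.20. Mitochondrial and peroxisomal members could therefore not be compared in muscle. The median of all measured genes was -0.051.

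The second comparison was MCSE against PBS on the arrays labelled liver, and here 4 of the 5 members passed 2-fold, in both directions. The background was 8.27% of 11342 measured genes at least 2-fold higher and 6.01% at least 2-fold lower. Hadha was 4.76-fold lower with MCSE (a log2 difference of -2.25) and Acadl 2.69-fold lower (-1.43). Acot2 was 2.35-fold higher (1.23) and Ehhadh 2.31-fold higher (1.21). Acadm differed by 0.43, within the SD per probe of 0.611. With the mean of its probes, Acot2 fell short of 2-fold at 0.63, since its second probe gave 0.04.

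The contrast of compartments did not follow a single line. Among the mitochondrial members the liver-label difference ran from -2.25 to 1.23, with a median of -0.50, and Ehhadh stood at the upper end of that range. Ehhadh exceeded Hadha, the enzyme of matching chemistry, by 3.46 and Acadl by 2.64, but Acot2 by -0.02. Acadl and Acadm, dehydrogenases of the same step, were at -1.43 and 0.43. With the MCSE adipose array in place of the MCSE liver array the differences from PBS liver were -2.21 for Hadha, -1.50 for Acadl, 0.45 for Acadm, 1.08 for Acot2 and 1.19 for Ehhadh. These 2 MCSE arrays were nearly alike over all probes, so this is not a separate measurement of the effect.

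**Figure D2:**
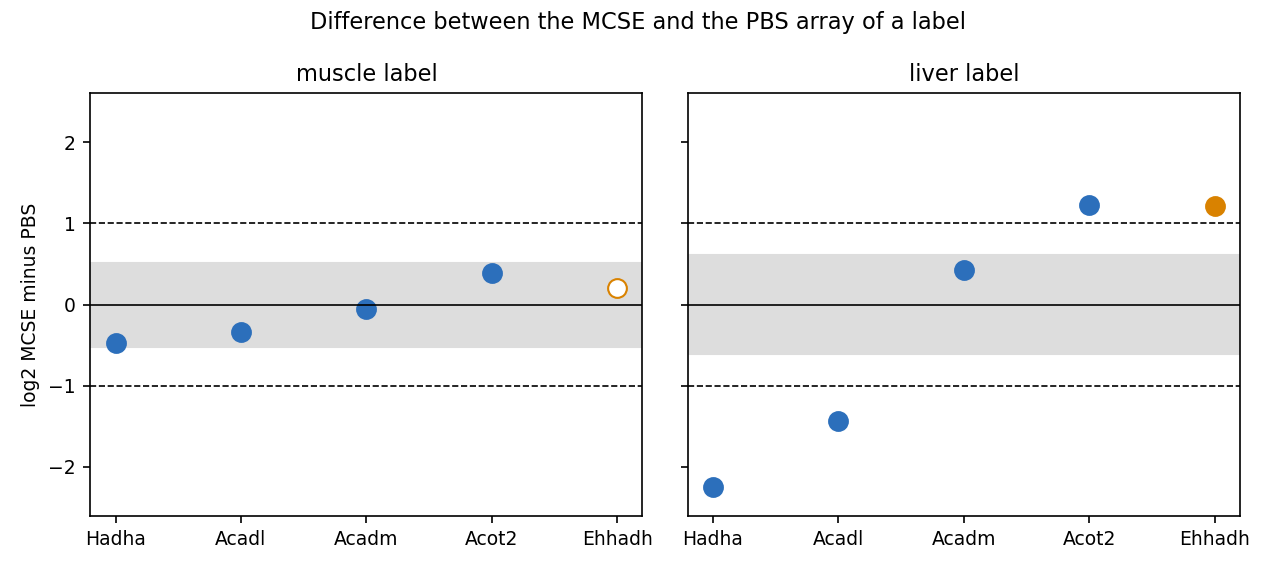
Log2 MCSE minus PBS for each enzyme (vertical axis) in the muscle and liver labels, blue for mitochondrial and orange for peroxisomal; the open point was not measured, the grey band is ± the SD per probe of the pair (0.517 and 0.611) and the dashed lines mark 2-fold. All points lie within the band in muscle, whereas Hadha and Acadl lie under the lower dashed line and Acot2 and Ehhadh above the upper one in the liver label.

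Marker genes of some other tissues differed between the same arrays. Between the liver-labelled arrays all 8 measured genes of slow and cardiac muscle were lower with MCSE, 7 of them at least 2-fold, with a median of -2.13. Mb, the oxygen store of muscle, was at -4.14. On that list 8 of 11 genes were at or above the median of all probes with PBS and 4 of 11 with MCSE. Genes of the kidney proximal tubule were higher, 5 of 10 at least 2-fold, with a median of 1.08, against 8.27% of all measured genes. Slc34a1, the phosphate transporter of that segment, was 1.20 higher and Lrp2, the megalin receptor, 1.88 higher, while Kap differed by -0.02 near the top of the scale. The shift was not particular to that segment. All 6 measured genes of other kidney segments were higher, 4 of them at least 2-fold, with a median of 1.39. Hepatocyte genes had a median of 0.06, with 1 of 9 at least 2-fold lower, Fgb at -1.45, and Alb differed by -0.42. Fast-fibre genes, dim on these arrays (list medians 9.04 with PBS and 8.96 with MCSE), had a median difference of -0.31, with 1 of 8 at least 2-fold lower. White adipocyte genes had a median of 0.48 and brown adipocyte genes 0.22, with 1 of 7 and 1 of 5 at least 2-fold higher. The part of these tissues in the differences of Hadha, Acadl, Acot2 and Ehhadh was not tested. In muscle, genes of slow and cardiac muscle had a median of 0.85. With MCSE 5 of 11 were at least 2-fold higher and 1 lower, against 3.9% and 1.88% of all measured genes. They did not move together, with 8 above 0 and 3 below, from 3.84 (Tnni1 and Tnnt1) to -1.15 (Myh6). The mitochondrial members lay between -0.47 and 0.39. All 7 measured proximal tubule genes were higher with MCSE in that pair, 2 of them at least 2-fold, with a median of 0.72 and Kap at 3.20. The part of these tissues in the muscle values was not tested.

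The adipose labels are given as values only. Relative to PBS adipose, MCSE adipose was 4.29 higher for Ehhadh, 3.78 for Acadm, 2.93 for Acadl and 1.57 for Acot2, and Hadha alone was lower, at -3.35. The list of white adipocyte genes stood at a median of 9.67 with PBS and 14.81 with MCSE in this pair. Proximal tubule genes stood at 9.58 and 12.84, and hepatocyte genes at 8.84 and 10.54. Genes of slow and cardiac muscle went the other way, from 12.08 with PBS to 8.71 with MCSE. The part of these tissues in the differences of the members was not tested.

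The other genes of the pathway were taken from lists of its steps and regulators. Of 81 symbols on 9 lists, 73 were found on the array, 5 of them under an older name, and 65 were measured in each pair. In muscle 1 of 65 (1.54%) was at least 2-fold higher and 2 (3.08%) were lower, and the median was -0.03. In the liver label 7 (10.8%) were higher and 2 (3.08%) lower, with a median of 0.16, against 8.27% and 6.01% of all measured genes and their median of -0.015. Shares near those of all genes are no result about the pathway.

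Entry of fatty acids into mitochondria was covered by 6 genes. In muscle none (0 of 6) passed 2-fold, with differences from -0.61 (Slc25a20, the carnitine-acylcarnitine carrier) to 0.88 (Slc22a5, the carnitine transporter of the cell membrane). In the liver label all 5 measured genes were above 0, with a median of 0.61, and Slc22a5 was at least 2-fold higher (1.10). Cpt1a, the liver form of the rate-controlling acyltransferase, differed by 0.16.

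Matrix enzymes had a median of 0.06 over 14 measured genes in muscle and 0.12 over 14 in the liver label. No gene passed 2-fold in muscle (0 of 14) and 1 did in the liver label, Acad10 at 1.00. In the liver label 9 of the 14 lay above 0 and 5 below, from -0.56 (Etfb, an electron carrier subunit) to 1.00. Acadvl, the very long-chain dehydrogenase, differed by 0.84 in the liver label, Hadh, the short-chain hydroxyacyl-CoA dehydrogenase, by 0.25 and Acaa2, the thiolase, by -0.51.

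Peroxisomal enzymes had a median of -0.17 over 9 measured genes in muscle, with none past 2-fold (0 of 9). In the liver label the median was 0.10 over 12 genes, of which 2 were at least 2-fold higher and 0 lower. Decr2, the dienoyl-CoA reductase, was 1.78 higher and Crot, which exports shortened chains as carnitine esters, 1.23 higher. Hsd17b4, the second bifunctional enzyme of peroxisomes, was at -0.57 and Acaa1a, a thiolase, at -0.27. The oxidases of the step before Ehhadh, Acox2 and Acox3, differed by 0.74 and 0.78. The list of peroxisome assembly genes and catalase, with 11 measured, had a median of 0.36 and none past 2-fold (0 of 11).

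Among thioesterases, Acot12, a cytosolic acetyl-CoA hydrolase of liver, was at 13.16 on PBS liver and 10.82 on MCSE liver, a difference of -2.34. Acot1, the cytosolic paralog of Acot2, differed by 0.69 in muscle and -0.32 in the liver label, where Acot2 was higher. The list had a median of 0.11 in muscle and -0.20 in the liver label.

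Of the regulators, Ppargc1a, a coactivator of PPAR receptors, was at -0.65 in muscle and 1.74 in the liver label (0.56 on its second probe), and Prkaa1, a catalytic subunit of AMP-activated kinase, was 1.16 higher in the liver label. Ppara itself differed by 0.04 and 0.02. Among other PPAR targets in muscle, Fabp1, the liver fatty acid-binding protein, was at -2.59, Fabp3, its muscle and heart counterpart, at -1.10 and Plin2, a lipid droplet coat, at 1.22. Alb, a hepatocyte gene, was at -1.91 in the same pair, the only 1 of 6 measured hepatocyte genes to pass 2-fold. The median of these 6 was -0.01, with 3 above 0 and 3 below. In the liver label Cd36, a fatty acid transporter, was 1.61 higher and Fabp3 was at -1.15.

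The citric acid cycle, which burns the acetyl-CoA made by beta-oxidation, had a median of -0.04 in muscle and 0.11 in the liver label. Cs, citrate synthase, was at 14.33 on PBS muscle and 7.74, the lowest value assigned, on MCSE muscle on its single probe. The difference of -6.58 is set by that floor and is a limit, not a measured size. No other gene of the list passed 2-fold in muscle (0 of the other 14). Ogdh, a subunit of the oxoglutarate dehydrogenase complex, was 1.24 higher in the liver label.

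**Figure D3:**
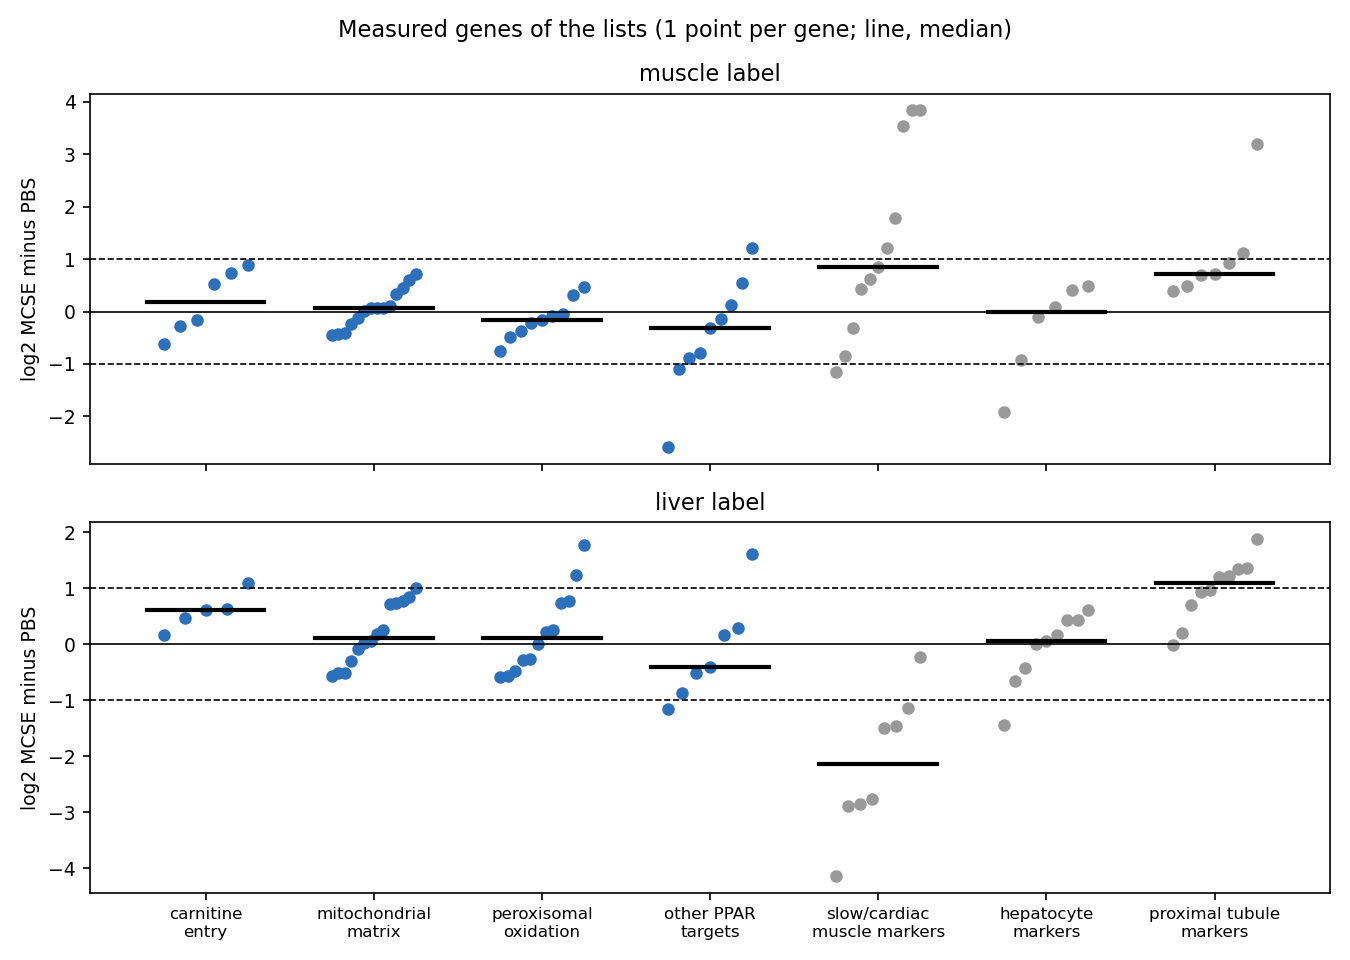
Log2 MCSE minus PBS (vertical axis) for the measured genes of 4 pathway lists (blue) and 3 marker lists (grey), 1 point per gene, with a black line at each list's median and dashed lines at 2-fold. Pathway medians lie between -0.41 and 0.61 in both labels, while slow and cardiac muscle markers have a median of -2.13 and proximal tubule markers 1.08 in the liver label.

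The third comparison, muscle against liver label, could be tested because each label had 2 arrays. These were differently treated mice, so the spread within a label includes any difference due to MCSE, and p-values measure only the spread between these arrays. A gene passed when its adjusted p from limma was under 0.05 and it differed 2-fold or more, which left 9.71% of 12475 genes higher in muscle and 15.1% lower. Of the 5 members, 1 was higher in muscle and 1 lower.

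Ehhadh was lower in muscle than in the liver label by 2.93 on the log2 scale, with means of 8.84 and 11.77 and an SE of 0.44 (adjusted p from limma 0.00682). Both muscle arrays were below both liver arrays. They were also under the median of all probes, so Ehhadh entered the test through the liver arrays alone and the size of its difference is not well defined. With that median in place of the muscle values, the liver label was at least 2.82 higher. Without the filter on dim probes the adjusted p from limma was 0.0442. Acot2 was higher in muscle by 2.24 (means 13.62 and 11.38, SE 0.45, adjusted p from limma 0.0167), again without overlap. The call for Acot2 was lost without the PBS muscle array (adjusted p from limma 0.0687) or without the MCSE muscle array (0.113), and both members lost it when all 6 arrays entered the fit (adjusted p 0.549 for Acot2 and 0.597 for Ehhadh).

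The other 3 members did not pass. Hadha differed by 0.46 with an SE of 0.70 (adjusted p from limma 0.636), and the muscle arrays lay between its liver arrays. Without the PBS liver array Hadha was higher in muscle by 1.59 and passed (adjusted p from limma 0.0354), and without the MCSE liver array the difference was -0.66. Acadl differed by 0.20 ± 0.49 (SE) and Acadm by 0.06 ± 0.30. The sign of Acadl turned without the MCSE liver array (-0.52) and that of Acadm without the PBS liver array (-0.15).

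The rest of the pathway was split in the same fit. Of 12 peroxisomal enzymes tested, 8 (66.7%) were lower in muscle and 0 higher, with a median of -1.27, against 15.1% of all genes and their median of -0.04. Acaa1b, a peroxisomal thiolase, was lower by 3.77 (adjusted p from limma 0.00119), and Hacl1, a lyase of alpha-oxidation, was lower by 1.83 (0.00943). Without the filter on dim probes 4 of the 12 were lower. Neither muscle array reached the median of all probes for Acaa1b, Acox2 or Decr2, which entered the test through the liver arrays and count among the 8. Of 15 matrix enzymes, 0 passed in either direction (3 at an unadjusted p under 0.05 with limma), with a median of -0.34. The count of 8 peroxisomal genes fell when any single array was left out, and it was 0 with all 6 arrays in the fit. All 12 lay below 0 in that fit too. Adding the adipose arrays cannot change the differences between muscle and liver labels, so this sign is no further support. Proximal tubule genes, part of a tissue rich in peroxisomes, had medians of 8.81 and 9.45 on the muscle arrays and 11.60 and 12.62 on the liver arrays. Genes of other kidney segments had medians of 8.58 and 9.13 on the muscle arrays and 10.92 and 12.56 on the liver arrays. The part of these tissues in this split was not tested.

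The carnitine acyltransferase isoforms separated the labels. Cpt1b, the muscle form, did not reach the median of all probes on either liver array and was higher in muscle by 2.73 (adjusted p from limma 0.0046), and Cpt1a was lower by 2.81 (0.00232). Acacb, which makes the malonyl-CoA that inhibits these enzymes, was higher in muscle by 2.70 and Mlycd, which removes it, by 1.05 (adjusted p from limma 0.00256 and 0.0366). Pdk4, which restrains glucose oxidation, was higher by 4.65 (adjusted p from limma 0.00111). Of the 71 pathway genes tested, 10 (14.1%) were higher in muscle and 18 (25.4%) lower, against 9.71% and 15.1% of all genes. With all 6 arrays in the fit 0 were higher and 0 lower, so the calls of these genes were lost as well. The list of peroxisome assembly genes also held Cat, catalase, an enzyme of peroxisomes and not an assembly factor. Of its 11 genes tested, 5 (45.5%) were lower in muscle and 0 higher, against 15.1% and 9.71% of all genes. Among the 5 were Pex3, a membrane assembly factor, and Cat.

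**Figure D4:**
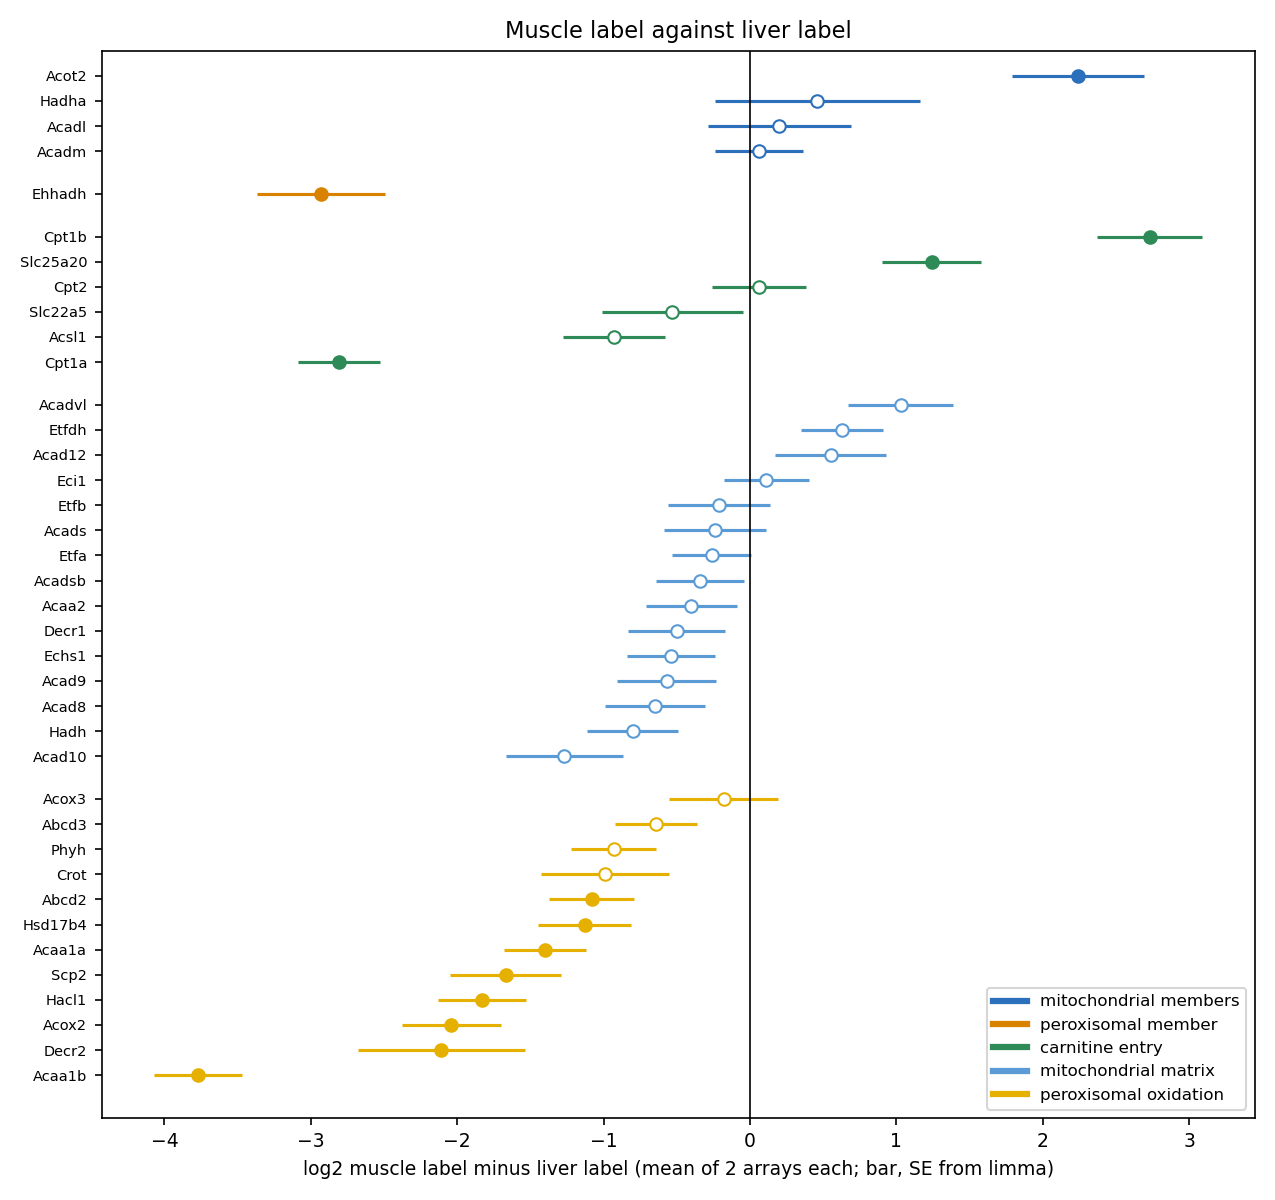
Log2 muscle label minus liver label (horizontal axis) for members, carnitine entry, matrix and peroxisomal genes, as the mean of 2 arrays against 2 with the SE from limma; filled points passed an adjusted p under 0.05 and 2-fold. The 12 peroxisomal genes lie to the left of 0 with 8 filled, and the 15 matrix genes lie on both sides with none filled.

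The genes whose log2 values followed each member most closely over the 6 arrays were found by Pearson correlation among 12259 genes with a range of at least 1. For Hadha they were D630042P16Rik (0.997), Fzd4 (0.996) and Olfr552 (0.995). For Acadl they were Hnrnpa2b1 (0.999), Psmc5 (0.998) and Rrn3 (0.998), and for Acadm Npm1 (1.000), 2010107E04Rik (0.999) and Aff1 (0.999). For Acot2 they were 2310061I04Rik (0.995), Bach1 (0.994) and Phf20l1 (0.994), and for Ehhadh Tfpi (1.000), Gimap4 (0.999) and Galnt11 (0.999). No member was among the closest genes of another. Of the 6 arrays 2 were nearly alike and 1 stood apart, and the values describe these arrays only.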

How the data were processed

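Amplified RNA carried Cy5 alone, with 1 sample per array, per the labels' protocols. The authors deposited normalized intensities on a linear scale for 29922 probes. The submitters' processing notes name limma; background correction, normalization method and build are not given in the sources used here. All columns shared 1 distribution, with sorted values within 0.038 of their median on the log2 scale.

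Values under the 5th percentile (an intensity of 214.2) were raised to it before log2. A gene was represented by its brightest probe. Symbols are those of the platform annotation, and list genes were matched through RefSeq synonyms. No detection calls were used. The number of arrays limits the precision.

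Muscle and liver labels were compared on 4 arrays with limma 3.58.1 in R 4.3.3 (lmFit, eBayes, Benjamini-Hochberg over 12475 genes). The fit was tested on simulated data for this comparison (12475 genes, normal noise with the same SD of 0.325 for every gene). It recovered 19 of 50 genes given a log2 change of 1 and every one of 50 for each change of 2, 3 or 4. It made 4 false calls. On the real arrays the spread differed between genes, so these rates need not hold there. Python 3.11.15, pandas 2.3.3 and statsmodels 0.14.6 were used.

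The members and lists were chosen with earlier results of these data known. Named were all members, genes of a list past 2-fold (at most 4 per list and pair), Acot1, and the 3 genes most like each member. Genes named in the muscle against liver comparison, list genes under 2-fold, and marker genes were chosen after their values were seen. The RefSeq sequences are on build GRCm38.p6, and the files name no build.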

Additional observations from a re-analysis of the deposited data

Results flagged for a closer look

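Acadm differed in opposite directions between the labels, at -0.06 in muscle and 0.43 on the arrays labelled liver (log2 MCSE minus PBS). Both values were smaller than the SD per probe of their pair, each rests on 1 array per group, and the difference between the labels was not tested.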

How the results depend on the processing

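Member differences between MCSE and PBS moved by less than the SD per probe under median centring, removal of a trend with brightness, 32 added before log2 and, chosen after seeing the data, the MCSE adipose array in place of MCSE liver. Quantile normalization and no floor could not move them, since the arrays share 1 distribution and no member was under the floor. Median centring could move them little, since the medians were -0.051 in muscle and -0.015 in the liver label. Adding 32 could also do little, since even Ehhadh, the dimmest member in these pairs, had an intensity of 426 on PBS muscle. The mean over probes could move Acot2 alone, which then missed 2-fold on the liver arrays (0.63). At 1.5-fold in place of 2-fold, the pathway lists gave 7 genes higher and 7 lower in muscle and 16 higher and 7 lower in the liver label. With limma, genes higher in muscle than in the liver label numbered 47 with all 6 arrays, 1870 with treatment as a term, 742 without a filter on dim probes and 324 to 1515 with 1 array left out. Those lower numbered 0 with all 6 arrays (1067 genes at an unadjusted p under 0.05 in either direction) and 385 to 2141 with 1 array left out. Peroxisomal genes lower in muscle numbered 0 with all 6 arrays, 4 without the filter and 1 to 7 with 1 array left out. With 1 array left out, Hadha ranged from -0.66 to 1.59, Acadl from -0.52 to 0.91, Acadm from -0.15 to 0.28 and Acot2 from 1.63 to 2.86. A label left with 1 array is assumed to vary like the other. Acot2 (2.24) missed the threshold with all 6 arrays and without the filter (adjusted p 0.0739 with limma), and Ehhadh (-2.93) with all 6 arrays. With all 6 arrays both differences were unchanged, and the SE rose from 0.45 to 0.76 for Acot2 and from 0.44 to 1.37 for Ehhadh. Why the arrays of a label spread as they did was not tested. The labels give no replicate numbers. Treatment as a term, which pairs the muscle and liver arrays of one treatment with 1 residual degree of freedom, kept the calls of Acot2 and Ehhadh. A probe near the median of all probes, as for Ehhadh in muscle, can show a lower level only poorly.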
